A study of Populus ussuriensis with 9 samples.

Results

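Line OE18 of the poplar Populus ussuriensis, which overexpresses the transcription factor gene LbDREB6 at a high level according to the labels, was compared with the wild type (WT) by RNA-seq of leaves, both under drought. Of 29764 loci in the expression table, the comparison covers the 22848 that reached 1 FPKM in 3 or more of the 9 libraries. FPKM, fragments scaled to gene length and to the assigned reads of the library, is a level per length, so levels can be set side by side between genes. The third highest FPKM over the 9 libraries was 1.0003 for the gene just inside this limit and 0.9996 for the gene just outside it. The members were not chosen by the difference between the lines, but 1019 genes passed through the 3 OE18 libraries alone and 98 through the 3 WT libraries alone, and such genes had to differ.

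The series holds fully expanded leaves of 3 genotypes with 3 libraries each, described as biological replicates: WT, OE14 with moderate overexpression of LbDREB6, and OE18. All plants were 6 months old, grown in a greenhouse and deprived of water, for 1 week in the treatment protocol and for 2 weeks in the sample descriptions. There were no watered plants, so what is compared is the genotype under drought. OE18 is 1 line, and the promoter that drives the transgene is not given in the sources used here, so effects of the level of LbDREB6 and of this particular line cannot be told apart. The WT columns are headed C with a number and were taken as WT by elimination, because the other 6 columns carry the titles of the transgenic samples.

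DREB proteins (dehydration-responsive element binding) belong to the AP2/ERF family of plant transcription factors. They bind a short element in the promoters of many genes that respond to drought, cold and salt, and they can act without abscisic acid, the main hormone of the drought response. Constitutive overexpression of DREB genes has been used in many plants to raise stress tolerance, and strong overexpression has often come with reduced growth. The table gives locus IDs with no gene names beside them, and an annotation was not used. No role is therefore stated for any locus, the tissue was not checked against leaf markers, and LbDREB6, which was not analysed here, was not checked in the OE18 libraries. For the same reason IDs are given for only 2 loci that rose and 2 that fell, and other genes are described by rank, level, length and place.

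Depth, recovered from the values, was 11324024 to 13389816 assigned reads in the WT libraries and 10988010 to 13653249 in the OE18 libraries. Any 2 WT libraries differed by 2-fold or more, on the log2(FPKM + 1) scale used throughout, in 38 to 43 of the 22848 genes, and any 2 OE18 libraries in 33 to 55. An OE18 library and a WT library differed by this much in 6505 to 6860 genes, over all 9 such pairs. Across genes, the log2 difference had a standard deviation of 0.20 to 0.22 within a group and of 1.13 to 1.15 between groups. The p-values rest on the spread between these libraries, which may be technical where they do not come from separate plants.

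On the log2(FPKM + 1) scale, where a pseudocount of 1 damps the change of low genes, no gene rose by more than Potri.006G256100.v3.0, a locus of 677 bases with an ID on chromosome 6. Its FPKM was 0.662, 0.509 and 0.391 in the WT libraries and 394, 365 and 355 in the OE18 libraries. The transcript was close to the limit of detection in WT, with 13 reads over 3 libraries, and all OE18 libraries lay far above all WT libraries. In the order of levels within a library, where rank 1 is the highest, it moved from rank 21730 or lower in WT to rank 136 or higher in OE18. The log2 fold change was 7.94 (SE 0.108, n = 3 each, limma adjusted p = 5.7e-16). In OE14 it had 4.79, 5.65 and 7.17 FPKM, between WT and OE18. In whole leaves, a change in the number of cells of a type and a change in RNA per cell cannot be told apart, here or for any gene below.

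The largest gain in amount was that of Potri.017G114600.v3.0, with 1583 bases and an ID on chromosome 17. It had 1464, 1464 and 1469 FPKM in WT and 8677, 8033 and 7560 in OE18. An abundant transcript in WT, at rank 21 or 22, it was at rank 1 or 2 in every OE18 library and held up to 1.54% of the summed FPKM there. The mean rose by 6625 FPKM, 5.52-fold, a log2 fold change of 2.46 (SE 0.051, n = 3 each, limma adjusted p = 3.2e-14). OE14 lay between, with 2220, 2274 and 2199 FPKM.

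On the same log2(FPKM + 1) scale no gene fell by more than Potri.012G022400.v3.0, with 1042 bases and an ID on chromosome 12. Its FPKM was 1057, 1043 and 947 in WT against 13.9, 13.9 and 12.8 in OE18. The lowest WT library was still far above the highest OE18 library, and the rank fell from between 34 and 38 to between 7715 and 8206. The ratio of the WT mean to the OE18 mean in FPKM was 74.9. On the log2(FPKM + 1) scale, where the pseudocount enters, the log2 fold change was -6.12 (SE 0.051, n = 3 each, limma adjusted p = 1.5e-17). OE14 had 142, 145 and 136 FPKM.

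The largest loss in amount was that of Potri.006G085200.v3.0, with 1259 bases and an ID on chromosome 6. In WT it had 5184, 4966 and 5023 FPKM and was at rank 2 in every library. In OE18 it had 1466, 1393 and 1338 FPKM, at rank 15 or 16, and the groups did not overlap. The mean fell by 3659 FPKM, a log2 fold change of -1.85 (SE 0.048, n = 3 each, limma adjusted p = 2.7e-13). The libraries of OE14 lay on the other side of WT, with 6838, 7061 and 6752 FPKM, and OE14 was higher than WT by 0.44 on the log2 scale (SE 0.048, limma adjusted p = 3.8e-06, in a comparison where limma called 52.8% of the genes). All 4 genes passed a test for a change beyond 2-fold, limma treat, with adjusted p between 7.8e-17 and 1.7e-09.

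**Figure D1:**
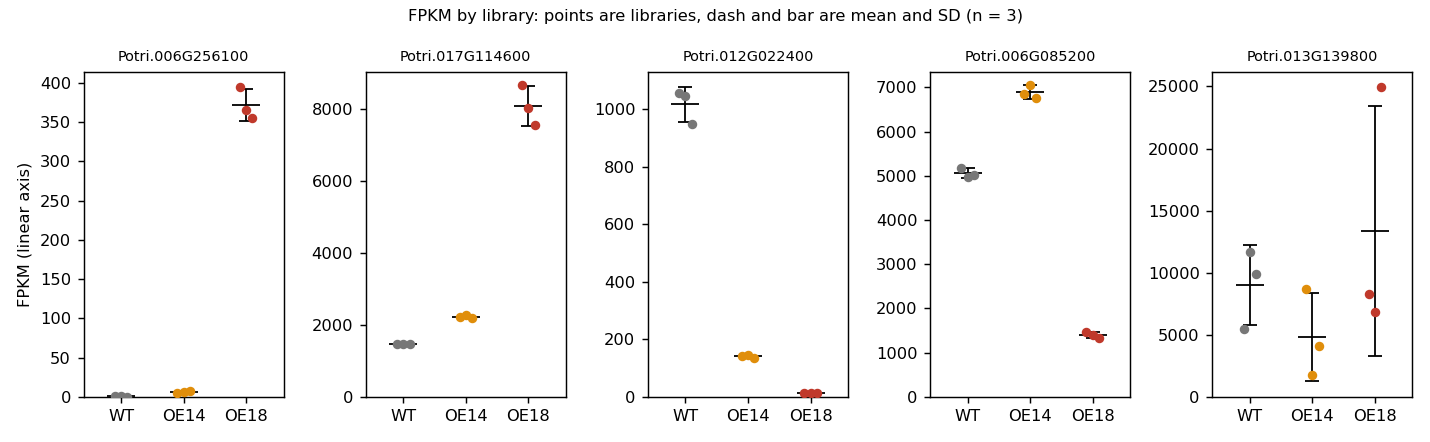
FPKM of 5 loci in each library of WT, OE14 and OE18 on linear axes. Points are libraries and the dash and bar are the mean and SD of 3 libraries. In the first 4 panels the OE18 points lie apart from the WT points, and in the last, Potri.013G139800, 1 OE18 library at 24984 FPKM lies above all others while the rest of the groups overlap.

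The largest rises on this scale started from low levels. Among the 20 genes with the largest log2 fold changes upward, the WT mean was 0.057 to 7.43 FPKM with a median of 0.983, and the OE18 mean was 80.5 to 800 FPKM with a median of 183. The one with rank 2 in this order went from 2.55 ± 0.48 to 755 ± 37 FPKM and that with rank 9 from 7.43 ± 0.58 to 800 ± 26 (SD, n = 3 each). The order would differ without the pseudocount: the gene with rank 10 went from 0.057 ± 0.099 to 97.4 ± 2.6 FPKM, a larger ratio of means than that of rank 1, though a level this low rests on few reads. All 20 lay at log2 fold changes of 6.04 to 7.94, on 12 chromosomes by their IDs. The 20 largest falls started from abundant transcripts. Their WT means were 24.6 to 3136 FPKM with a median of 429, and their OE18 means 0.091 to 128 FPKM with a median of 14.7. The one with rank 5 went from 2254 ± 23 to 55.6 ± 2.9 FPKM and that with rank 16 from 2693 ± 189 to 116 ± 7.5 (SD, n = 3 each). The fall with rank 15, from 24.6 ± 0.63 to 0.091 ± 0.079 FPKM, was likewise larger as a ratio of means than that with rank 1, with few reads in OE18. The log2 fold changes of the 20 falls were -6.12 to -4.35. On the log2(FPKM + 1) scale a fall cannot exceed log2(WT FPKM + 1), so genes low in WT could not be among these 20 falls. The genes of both lists were chosen by their difference, so the levels are a description.

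**Figure D2:**
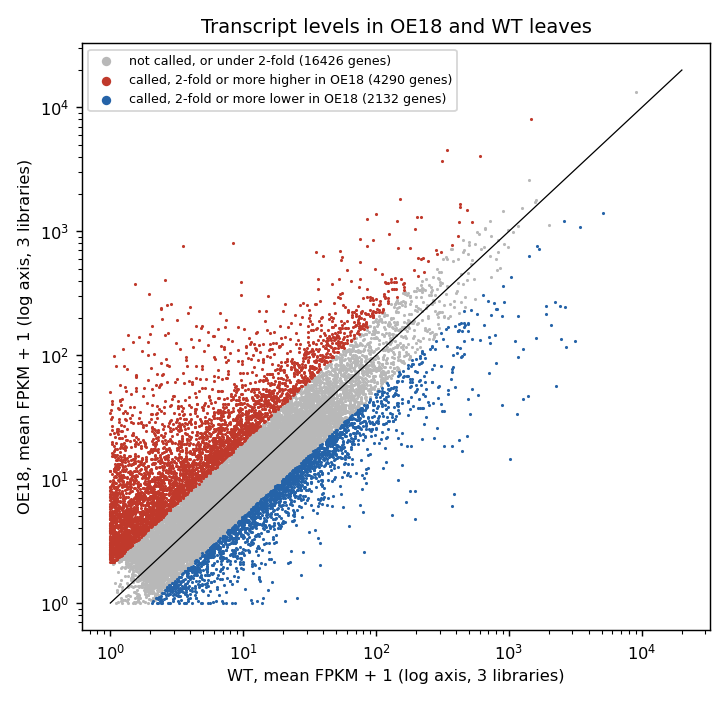
Mean FPKM + 1 of 22848 genes in WT and in OE18 on log axes, with the line of equal levels. Genes called by limma and different by 2-fold or more on the log2(FPKM + 1) scale are coloured, 4290 higher and 2132 lower in OE18. The cloud is wide at low WT levels on the upper side and at high WT levels on the lower side.

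Most genes differed between OE18 and WT at some size. Limma called 79.5% of the 22848 tested genes at an adjusted p under 0.05, 41.6% higher and 37.9% lower. Of the tested genes, 80.3% had OE18 and WT libraries that did not overlap. The counts by size follow. Limma treat, which asks whether a change goes beyond a given fold, called 4452 genes beyond 2-fold (19.5%), 3171 of them higher (13.9%) and 1281 lower (5.61%). It called 1172 beyond 4-fold (5.13%), 977 higher (4.28%) and 195 lower (0.853%). Beyond 8-fold it called 362 (1.58%), 308 higher (1.35%) and 54 lower (0.236%). In all 9 pairs of an OE18 and a WT library, 3371 genes were at least 2-fold higher and 1398 at least 2-fold lower, and 395 and 70 at least 8-fold. With FPKM as deposited, rises outnumbered falls in each of these counts.

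Rises outnumbered falls by more among the large differences. At 1.5-fold or beyond, 6688 called genes were higher and 4980 lower. A size of 2-fold was reached by 28.1% of the tested genes, 18.8% higher and 9.33% lower, and one of 4-fold by 7.62%, 6.26% higher and 1.35% lower. A size of 8-fold was reached by 499 rises and 82 falls, 16-fold by 156 and 26, and 32-fold by 60 and 6. On the log2(FPKM + 1) scale a fall of 64-fold was reached by 1 gene, Potri.012G022400.v3.0, and a rise of that size by 20. These numbers depend on the pseudocount: with 0.1 in place of 1 there were 11 such falls and 116 such rises, and with limma voom on the recovered reads 24 and 260. The balance of small changes depended on the scaling. Quantile normalization, which gives all libraries the same distribution, moved the median log2 fold change of all genes from 0.03 to -0.15. It gave 8028 rises and 10647 falls among all called genes, 5515 and 6758 at 1.5-fold or beyond, and 3458 and 3204 at 2-fold. Rescaling to the same FPKM sum gave 8784 rises and 9480 falls among all called genes. From 4-fold upward rises outnumbered falls under every scaling tried, with 1143 and 446 under quantile normalization at 4-fold and 409 and 88 at 8-fold. The pseudocount set how many low genes reached a given fold. With voom, 8-fold was reached by 1429 rises and 237 falls.

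The 1019 genes that passed the limit through OE18 alone contributed 860 of the 2-fold rises and 400 of the 4-fold rises. The 98 genes that passed through WT alone contributed 51 and 14 of the falls. Without both sets, 2-fold was reached by 3430 rises and 2081 falls, and 4-fold by 1031 and 295. With the limit applied to the OE14 libraries, which take no part in the comparison, 20292 genes were tested, and 4-fold was reached by 909 rises and 291 falls. The split of all called genes then changed side, to 7803 higher and 8293 lower.

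**Figure D3:**
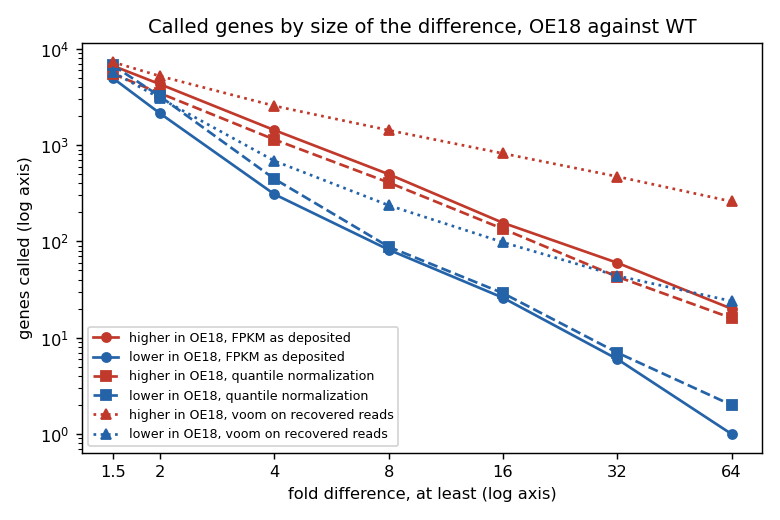
Number of genes called by limma in OE18 against WT at or beyond a given fold, on log axes, with rises in red and falls in blue. Lines stand for the FPKM values as deposited, for quantile normalization and for voom on the recovered reads. The 2 directions lie close at 1.5-fold, and from 4-fold upward the red line lies above the blue line of the same kind.

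In amounts, the genes that differed held a large part of the transcript pool. The 4290 rises of at least 2-fold held 8.69% to 8.77% of the summed FPKM in the WT libraries and 33.5% to 35.0% in the OE18 libraries. The 2132 falls of that size held 30.1% to 30.9% in WT and 7.29% to 7.50% in OE18. The 309 falls of at least 4-fold alone held 12.5% to 13.2% of the WT sum and 1.28% to 1.32% of the OE18 sum. Summed over all 22848 tested genes, called or not, the gains in mean FPKM came to 203081 and the losses to 168518. The gains include 4343 FPKM of Potri.013G139800.v3.0, which limma did not call. The losses were more concentrated: 182 genes made up 50% of them, and 342 genes made up 50% of the gains. Both figures describe genes that were sorted by the same difference.

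**Figure D4:**
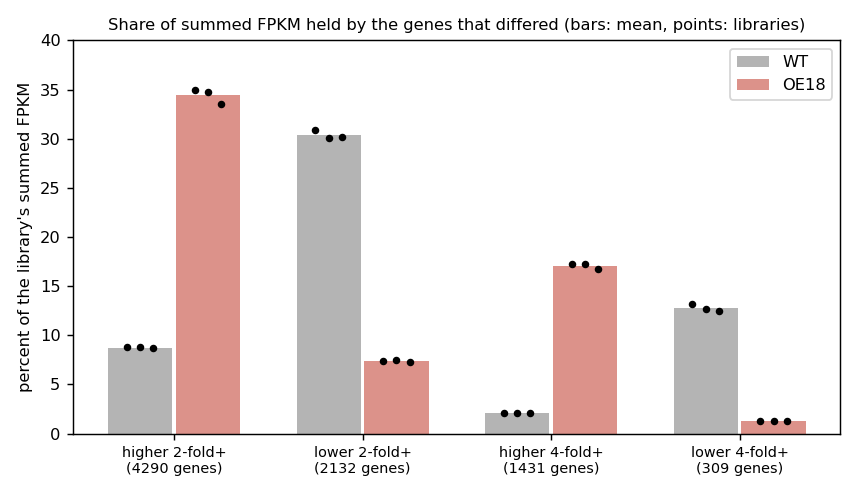
Percent of each library's summed FPKM held by the genes called and different by 2-fold or 4-fold or more, in WT and OE18. Bars are means of 3 libraries, starting at 0, and points are the libraries. The 1431 rises of at least 4-fold go from 2.05% to 2.06% in WT to 16.7% to 17.3% in OE18.

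The most abundant transcripts changed places. Of the 100 genes with the highest mean FPKM in WT, 45 were among the 100 highest in OE18. Limma called 71 of the WT list lower and 23 higher in OE18, where 37.9% and 41.6% of all tested genes were called, and the median log2 fold change of the list was -1.25. A list picked for being high in WT leans toward falls by its choice. The lowest of these genes was at rank 7896 in OE18. Of the 100 highest in OE18, 77 were called higher and 16 lower, and the lowest had been at rank 17315 in WT. A list picked for being high in OE18 leans toward rises in the same way. The pool itself was not much more or less concentrated. In the WT libraries 1064 to 1093 genes made up 50% of the summed FPKM and 9570 to 9624 made up 90%. In OE18 these numbers were 1060 to 1187 and 10204 to 10443. The first range overlaps between the groups only through OE18 replicate 3, at 1060, while OE18 replicates 1 and 2 were at 1129 and 1187. In replicate 3 a single gene, Potri.013G139800.v3.0, which varied widely within every group, held 4.45% of the summed FPKM. The second range does not overlap.

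The levels of the genes that rose and fell differed. Of the 4290 genes higher by 2-fold or more, 34.4% had a mean under 1 FPKM in WT and 1.47% a mean of 100 or more, against 10.2% and 3.17% of all tested genes. In OE18, 408 of them (9.51%) reached 100 FPKM or more, where 63 had been at that level in WT. Of the 2132 genes lower by 2-fold or more, 12.7% had 100 FPKM or more in WT and 3.28% in OE18, and 13.6% had fallen under 1 FPKM. The median gene of the first set went from 2.23 to 12.3 FPKM and that of the second from 20.3 to 6.85. WT levels enter the difference itself, so part of this contrast follows from the sorting. Part of it follows from the limit on low values: 860 of the 1476 risen genes under 1 FPKM in WT had passed through the OE18 libraries alone. Without the genes that passed through OE18 or WT alone, 18% of 3430 risen genes were under 1 FPKM in WT, against 6.02% of all such genes. Sorted into 10 equal classes by the mean over all 9 libraries, 25.5% of the lowest class and 21.9% of the highest were higher by 2-fold or more. Falls of 2-fold or more made up 4.2% of the lowest class and 19.7% of the highest. After quantile normalization the lowest class held 13.6% rises and 12% falls, and the highest class 18.7% and 22.5%. With classes by the OE14 mean, the lowest class held 51.1% rises and 3.98% falls, and the highest 13% and 22.6%. The median OE14 level of that lowest class was 0.67 FPKM. A gene with an OE14 mean under 1 FPKM could pass the limit only with WT or OE18 libraries at 1 FPKM or more. Since 1019 genes passed through OE18 alone and 98 through WT alone, the 51.1% follows in part from the limit. The contrast between low and high levels therefore depends on the scaling and on how level is defined, and in the highest class both changes put falls above rises.

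Transcripts that were absent from one genotype were few. No read was found in the 3 WT libraries for 101 genes whose OE18 mean was at least 1 FPKM. In the other direction there were 27 genes. These genes were picked by their WT and OE18 values, so both counts are a description. In OE14 the median was 0.0441 FPKM for the 101 and 0.17 FPKM for the 27. The limit on low values was itself uneven: of the 22848 tested genes, 1019 passed through OE18 alone and 98 through WT alone. The most abundant of the 101 had 52.3, 47.4 and 48.4 FPKM in the OE18 libraries, from 3178 reads. With 3 reads over the group as the limit that a count of 0 allows, its level was at least 1010-fold higher in OE18 than in WT. In OE14 it had a mean of 0.105 FPKM. Of the 101, 70 had a bound of 16-fold or more, and 70 had reads in OE14. The most abundant of the 27 had 12.4, 15.0 and 11.3 FPKM in WT and was at least 63-fold lower in OE18, and it had 13.2 FPKM in OE14.

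The differences of OE18 varied with gene length and level together. Genes were divided into 5 equal classes by length, from 140 to 1189 bases in the shortest and from 2762 to 16541 in the longest, and into 5 equal classes by mean FPKM over all libraries. Among the most abundant genes, those of the shortest class had a median log2 fold change of 0.40 (997 genes) and those of the longest class one of -0.52 (764 genes). The medians of the 3 classes between them were 0.06, -0.03 and -0.28, so they fell at each step of length. Of the short abundant genes, 30.4% rose by 2-fold or more and 14.6% fell by as much. Of the long abundant genes, 7.20% rose and 25% fell. Every OE18 library showed this. Against the WT mean, the short abundant genes lay at 0.44, 0.41 and 0.36 and the long ones at -0.56, -0.48 and -0.49. Single WT libraries, compared with the mean of the other WT libraries, lay between -0.04 and 0.05 for the short and between -0.03 and 0.03 for the long ones.

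The fall with length was smaller at lower levels, and in the lowest class of level the shortest genes lay below the longest. In the lowest class of level, the median was 0.14 for the shortest genes, 0.39 for the next class and 0.22 for the longest. In the second class of level it was 0.06 for the shortest and 0.00 for the longest genes. In the next classes of level, 3 and 4, the longest genes lay at -0.25 and -0.38. In OE14 against WT, which shares the WT libraries, the medians of the 25 combinations of length and level ran from -0.01 to 0.12. Quantile normalization kept the medians of abundant genes apart, at 0.28 for the shortest and -0.57 for the longest. When level was taken from the OE14 libraries the medians were 0.16 and -0.56, so the value of the short abundant genes depends on how abundance is defined.

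The reads themselves showed the same shift without any scaling of levels. The read-weighted mean gene length was 2461 to 2489 bases in WT, 2428 to 2453 in OE14 and 2232 to 2287 in OE18. Genes of the longest class took 31.6% to 32.4% of the reads of tested genes in WT and 24.7% to 26.3% in OE18. Genes of the shortest class took 12.9% to 13.3% in WT and 13.9% to 15.0% in OE18. The shortest class holds Potri.013G139800.v3.0, of 849 bases, which varied widely between libraries. It had 233069 reads in OE18 replicate 3, the library at 15.0%, and 94529 and 78871 in OE18 replicates 1 and 2. In WT it had 61654, 115182 and 95391 reads. The shares without this gene were not computed. In both classes WT and OE18 did not overlap. The OE14 libraries did not overlap WT either, with 30.7% to 31.3% in the longest class and 11.7% to 12.4% in the shortest, where they lay below WT and OE18 above it. An exact permutation test of 3 libraries against 3 cannot give a two-sided p below 0.1, so these values were not tested. The summed FPKM, which weights reads by 1 over length, was 521892 to 525406 in WT and 553425 to 563135 in OE18. Length here is the one that entered the authors' FPKM, recovered from the values.

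**Figure D5:**
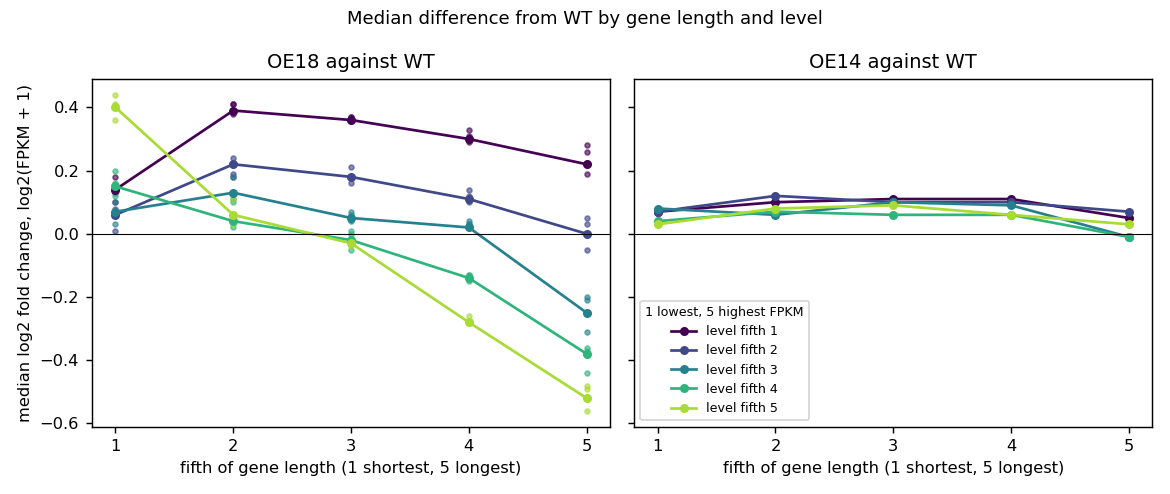
Median log2 fold change of 25 combinations of gene length and mean level, for OE18 against WT and OE14 against WT, with small points for single OE18 libraries against the WT mean. In OE18 the line of the most abundant genes runs from 0.40 in the shortest class to -0.52 in the longest, and in OE14 all lines lie between -0.01 and 0.12.

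The differences were spread over the genome, as far as locus IDs show position. On the 19 chromosomes of the IDs, genes higher by 2-fold or more made up 16.5% to 21.2% of the tested genes and genes lower by as much 7.12% to 11.1%. Chromosome 13 had the highest share of rises and chromosome 8 the lowest. The median log2 fold change was between -0.03 and 0.10 on every chromosome and 0.09 for the 497 loci that are not placed on one. Rises of 4-fold or more ran from 4.82% on chromosome 10 to 8.76% on chromosome 19. Whether the genome of these plants has the same order of genes was not examined.

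Neighbouring loci were compared in the order of their IDs. After a gene lower by 4-fold or more, the next tested gene in ID order was also lower by 4-fold or more in 8.08% of 297 cases, where 1.33% of all placed genes were. Where the next gene had the next locus number, this was 8.59% of 198 cases. For falls of 2-fold or more the share was 15.7%, where 9.35% of all placed genes fell by as much. For rises the share was 8.88% beside 6.30% at 4-fold and 22.6% beside 18.8% at 2-fold. The longest run of rises of 4-fold or more had 4 genes and that of falls 3 genes. Neighbouring loci can be copies of 1 gene, and the sources used here do not say how the counting treated reads shared between copies, so these shares were not tested.

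The libraries of OE18 varied about as much as those of WT. The median SD of log2(FPKM + 1) was 0.149 in OE18 and 0.146 in WT in the lowest class of level, and 0.065 and 0.055 in the highest. Of 15044 genes with a mean of 5 FPKM or more, 22 had a range of 2-fold or more among the OE18 libraries (0.146%), 18 among the WT libraries and 25 among the OE14 libraries. In 13 of the 22, OE18 replicate 3 lay farthest from the median of the group. The extreme case, singled out after its values were seen, was Potri.013G139800.v3.0, with 849 bases. It had 8284, 6804 and 24984 FPKM in OE18, 5423, 11697 and 9922 in WT, and 8723, 1744 and 4078 in OE14. It was the most abundant transcript of every WT library, was at rank 1 or 2 in the OE18 libraries and varied widely within every group. OE18 did not differ from WT in it by limma (log2 fold change 0.39, SE 0.525, adjusted p = 0.51). In OE18 replicate 3 it made up 4.45% of the summed FPKM. Without this gene the sums were 536041 to 554851 in OE18 and 511970 to 519983 in WT, still without overlap.

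Values of OE14 beside those of OE18 show how far the moderate line had moved in the genes that differed most in OE18. Both comparisons use the same WT libraries. The 1431 genes higher by 4-fold or more in OE18 had a median log2 fold change of 2.67 in OE18, with 90% of them between 2.05 and 4.80. In OE14 their median was 0.46, with 90% between -0.14 and 1.61. The 309 genes lower by 4-fold or more had a median of -2.46 in OE18 and of -0.60 in OE14, where 90% lay between -3.42 and 0.70. The 20 largest falls of OE18 all lay below WT in OE14, at log2 fold changes of -5.70 to -1.67, and the 20 largest rises lay at -0.67 to 2.95. In median level, the genes that rose by 4-fold or more had 1.17 FPKM in WT, 2.30 in OE14 and 17.1 in OE18. Those that fell had 42.1, 26.6 and 6.36. The genes were chosen by their OE18 values, and 400 of the 1431 had passed the limit through OE18 alone and so had to be low in OE14, so these levels are a description. The direct limma comparison of OE18 with OE14 called 77.7% of all tested genes, 8869 higher and 8876 lower in OE18.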

How the data were processed

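RNA-seq was measured in 9 leaf libraries, 3 per genotype. The values are FPKM deposited by the authors as 1 table. Bowtie2 2.2.3 and HISAT2 2.1.0 were used, per the submitters' processing notes. Which counting tool, genome build and annotation the authors used, and whether strand was used, is not stated in these sources. Titles give the groups, and the WT columns are headed C and a number in place of a title.

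Totals, whole reads and gene lengths were recovered from the ratios of low values: 100% of the values came out whole within 1e-06 reads. At 1 kilobase, 3 reads are an FPKM of 0.220 to 0.273 in the OE18 libraries and 0.224 to 0.265 in the WT libraries. Limits from 3 reads cover counting error only. Values were tested as log2(FPKM + 1), which understates the change of low genes, with limma 3.58.1 in R 4.3.3 and a variance trend, fitted once to the 9 libraries (6 residual degrees of freedom), two-sided, with Benjamini-Hochberg adjustment over all tested genes. Limma treat tested changes beyond a fold. Data were simulated for OE18 against WT over 20999 genes, with reads drawn from the WT means and a spread of 5% beyond counting error. Only 50 genes were changed at each fold. Limma called 38% of genes changed by 1.25-fold, 80% at 1.5-fold, 92% at 2-fold and 100% at 4-fold. Of its calls, 6.63% were unchanged genes. Treat beyond 2-fold called 0% of genes with a true 2-fold change and 84% of genes with a 4-fold one. In the real comparison limma called 79.5% of the genes, so these figures describe the simulated setting only.

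Named genes were the largest rise and fall on the log2(FPKM + 1) scale and, among the others, the largest gain and loss in FPKM. Members, lists and rules were chosen with earlier results of these data known. The 37 gene lists fixed by description could not be applied, since the table holds no descriptions. Alternatives were other pseudocounts, limits, scalings and fits, and each WT or OE18 library left out. Chosen after seeing the data were voom on recovered reads, levels and limits from OE14 alone, and a replicate block by the numbers in the column headings.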

Additional observations from a re-analysis of the deposited data

Results flagged for a closer look

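The 4 named genes differed between the lines by the direct limma test of OE18 against OE14. They were chosen by their difference between OE18 and WT, and the same OE18 libraries enter this test, so it is not independent of the choice. The log2 fold change was 5.77 for Potri.006G256100.v3.0 (SE 0.108, adjusted p = 2.6e-14), 1.86 for Potri.017G114600.v3.0 (SE 0.051, adjusted p = 7.8e-13), -3.29 for Potri.012G022400.v3.0 (SE 0.051, adjusted p = 5.7e-15) and -2.30 for Potri.006G085200.v3.0 (SE 0.048, adjusted p = 6e-14), with n = 3 libraries in each line. In the first 3 the OE14 libraries lay between WT and OE18, and in Potri.006G085200.v3.0 they lay above WT while the OE18 libraries lay below. Over all genes the direct limma test called 17745 of 22848.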

How the results depend on the processing

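Each count of genes in OE18 against WT was repeated under 18 alternatives, and counts within 1.5 times the reported one are not listed. When a mean of 5 FPKM was required, 5933 genes were called higher and 6642, a count within that limit, lower. Falls thus outnumbered rises among all calls there. In the same setting 1934 genes were higher beyond 2-fold by limma treat, 2397 were higher by 2-fold or more and 876 by 4-fold or more. Fewer genes were tested there. Quantile normalization gave 3204 genes lower by 2-fold or more. At 4-fold there were 2452 rises and 643 falls for a pseudocount of 0.1 and 2556 and 686 for voom, and the limit on OE14 alone gave 909 rises. Leaving out 1 WT or OE18 library at a time gave 9172 to 9310 genes called higher and 8252 to 8399 lower. The counts were 2988 to 3075 and 1190 to 1259 beyond 2-fold by treat. At 2-fold or more they were 4261 to 4361 and 2130 to 2208, and at 4-fold or more 1418 to 1462 and 310 to 321. The 4 named genes kept their direction and call in all 18, at log2 fold changes of 7.78 to 9.33, 2.37 to 2.66, -6.22 to -6.02 and -1.99 to -1.82. The value of Potri.013G139800.v3.0, not called in any of them, went from 0.39 to -0.41 under quantile normalization and lay between -0.19 (without OE18 replicate 3) and 0.75 with 1 library left out; the cause was not tested. Libraries with the same number in the column heading did not deviate together (correlations of 0.09, -0.01 and 0.04), so the numbers were not taken to pair them. A replicate block by these numbers gave 9556 genes called higher and 8667 lower. The balance of rises and falls depends on the scaling up to 2-fold, and values at low levels rest on few reads.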
